A study of Mus musculus with 18 samples.

Results

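The circadian clock genes described here are 10 genes of the mouse core clock: Arntl (also written Bmal1), Clock, Per1, Per2, Per3, Cry1, Cry2, Nr1d1, Nr1d2 and Dbp. Each was read from the probe sets annotated to that symbol alone, taking the one with the highest mean, and each of the 10 had 1 such probe set. They are 10 of 19937 genes on the array and 10 of the 15711 genes bright enough to be tested. RNA came from mouse embryonic fibroblasts of strain 129sv/ev, with 3 arrays, numbered 1, 2 and 4, in each of 6 groups. A wild-type line (WT, labelled NFAT5 wild-type 5.4) was kept in isotonic or hypertonic medium, each without or with Torin1, which inhibits the kinase mTOR and was added 1 h earlier at 100 nM. The line with Nfat5 knocked out (KO, labelled NFAT5 knock-out 5.1) was studied in both media without Torin1. The protein of Nfat5 is a transcription factor that switches on genes for osmolyte uptake when the medium turns hypertonic. Each genotype is thus represented by 1 line, so genotype and line cannot be told apart. The titles give 300 and 500 for the media with no unit, and neither the time in the medium nor the time of harvest or any synchronization of the cultures is stated.

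The clock is a feedback loop of transcription that runs in most cells, fibroblasts included. The proteins of Arntl and Clock pair and bind E-box sequences, where they switch on the Per, Cry, Nr1d and Dbp genes. PER and CRY proteins gather into complexes that hold back that pair, which closes the loop. In a further loop NR1D1 and NR1D2 (REV-ERB alpha and beta) repress Arntl and Clock through response elements that they share with the activating ROR receptors. DBP, with its relatives TEF and HLF, activates genes through D-boxes, and NFIL3 represses at the same sites. In cultures that are not synchronized the cells oscillate out of step, so an array reads an average over phases.

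Promoters are shown for 4 of the genes whose levels moved, because the loop acts through short motifs there. Those of Clock and Nr1d2, which moved too, are not shown and held none of the motifs searched. The sequences are the 250 bases before the annotated start, from RefSeq in the build GRCm38.p6, read 5′ to 3′ on the strand of the gene. Per3 spans chr4:151044666-151044915 on the minus strand, Arntl (the first of 2 start sites) chr7:113207215-113207464 on the plus strand, Cry1 chr10:85185055-85185304 and Nr1d1 chr11:98775378-98775627, both on the minus strand. Capitals mark the D-boxes of Per3, the E-box and the E-box variant of Cry1 and the E-box variant of Nr1d1.
Per3: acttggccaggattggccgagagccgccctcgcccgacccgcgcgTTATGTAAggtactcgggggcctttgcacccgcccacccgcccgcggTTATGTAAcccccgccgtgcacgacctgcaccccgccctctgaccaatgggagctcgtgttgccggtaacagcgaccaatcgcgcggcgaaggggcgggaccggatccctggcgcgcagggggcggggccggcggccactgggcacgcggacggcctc
Arntl: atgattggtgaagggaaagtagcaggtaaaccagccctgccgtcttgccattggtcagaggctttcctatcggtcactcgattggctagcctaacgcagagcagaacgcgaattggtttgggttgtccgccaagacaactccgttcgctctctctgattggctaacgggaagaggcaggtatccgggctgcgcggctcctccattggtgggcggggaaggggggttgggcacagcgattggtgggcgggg
Cry1: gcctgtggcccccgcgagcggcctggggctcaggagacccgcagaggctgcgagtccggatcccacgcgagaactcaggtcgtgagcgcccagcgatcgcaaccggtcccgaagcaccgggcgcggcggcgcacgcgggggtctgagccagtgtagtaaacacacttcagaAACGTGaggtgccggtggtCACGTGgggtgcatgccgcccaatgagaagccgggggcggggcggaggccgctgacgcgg
Nr1d1: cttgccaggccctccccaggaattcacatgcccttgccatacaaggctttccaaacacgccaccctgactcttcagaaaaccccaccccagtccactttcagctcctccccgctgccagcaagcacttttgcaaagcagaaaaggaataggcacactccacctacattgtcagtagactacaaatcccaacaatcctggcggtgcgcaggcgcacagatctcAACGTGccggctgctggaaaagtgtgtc
All motifs were searched on both strands. The E-box was searched as CACGTG and its variant, which shares most of those letters, as AACGTG. The D-box was searched as TTATGTAA or TTACGTAA, and the cyclic AMP response element as TGACGTCA. The core of the element of the ROR and REV-ERB receptors was searched as TAGGTCA and, for the other base that is common in its place, as TGGGTCA. Per3 held the D-box letters at -205 to -198 and at -158 to -151, counted from the start site. Cry1 held the E-box at -60 to -55 and the variant at -79 to -74, and Nr1d1 held the variant at -28 to -23. Arntl held none of the letters in the 250 bases shown, and the second of its start sites has TAGGTCA at 30 to 36 after the start. The table has entries for 9 of the 10 genes, all but Per2, with 13 start sites, of which 2 hold the E-box (Per1 and Cry1), 3 the variant (Cry1, Cry2 and Nr1d1) and 1 the D-box. Among all 32851 promoters of the same length the E-box is in 6.02%, the variant in 3.85%, the D-box in 0.931%, the cyclic AMP element in 1.55% and the ROR element core in 5.38%. A match says only that the letters are there.

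Values are RMA levels on the log2 scale, and array medians lay between 6.96 and 7.13 over all probe sets. Levels of different genes come from different probes and are not compared. Of 11 fibroblast markers all 11 were above the brightness threshold of 5.86 log2 and 10 had a group mean above 10 log2, whereas no marker listed for macrophages, endothelium, epithelium, nerve or muscle did. The fibroblast genes Dcn (7.27 to 13.74 over the 18 arrays), Thy1 (6.69 to 11.27) and Lum (4.14 to 7.68) varied widely. For isotonic KO array 1 the title says KO but the genotype label says wild-type. It was kept with the KO group, since over the tested genes it correlated at 0.992 with the mean of the other isotonic KO arrays and at 0.945 with isotonic WT, and values without it are given below. Nfat5 differed between the KO and the WT line by -0.26 ± 0.16 under isotonic conditions (limma adjusted p = 0.367) and by -0.44 ± 0.16 under hypertonic ones (limma adjusted p = 0.0503, and called at 0.00591 with the array number as a block). Where the probes of the Nfat5 probe set lie on the transcript was not looked up, so its level does not check a partial deletion. Per3 overlaps Uts2, Nr1d1 overlaps Thra and Dbp overlaps Sphk2 in the gene table. Changes are log2 differences with the standard error that limma gives for 3 arrays a group, and a gene is called at an adjusted p below 0.05 over all 15711 genes. The labels do not tie the arrays of a group to separate cultures, and p therefore covers the spread between these arrays alone. Where groups are said not to overlap, the share of all genes without overlap was not counted.

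**Figure D1:**
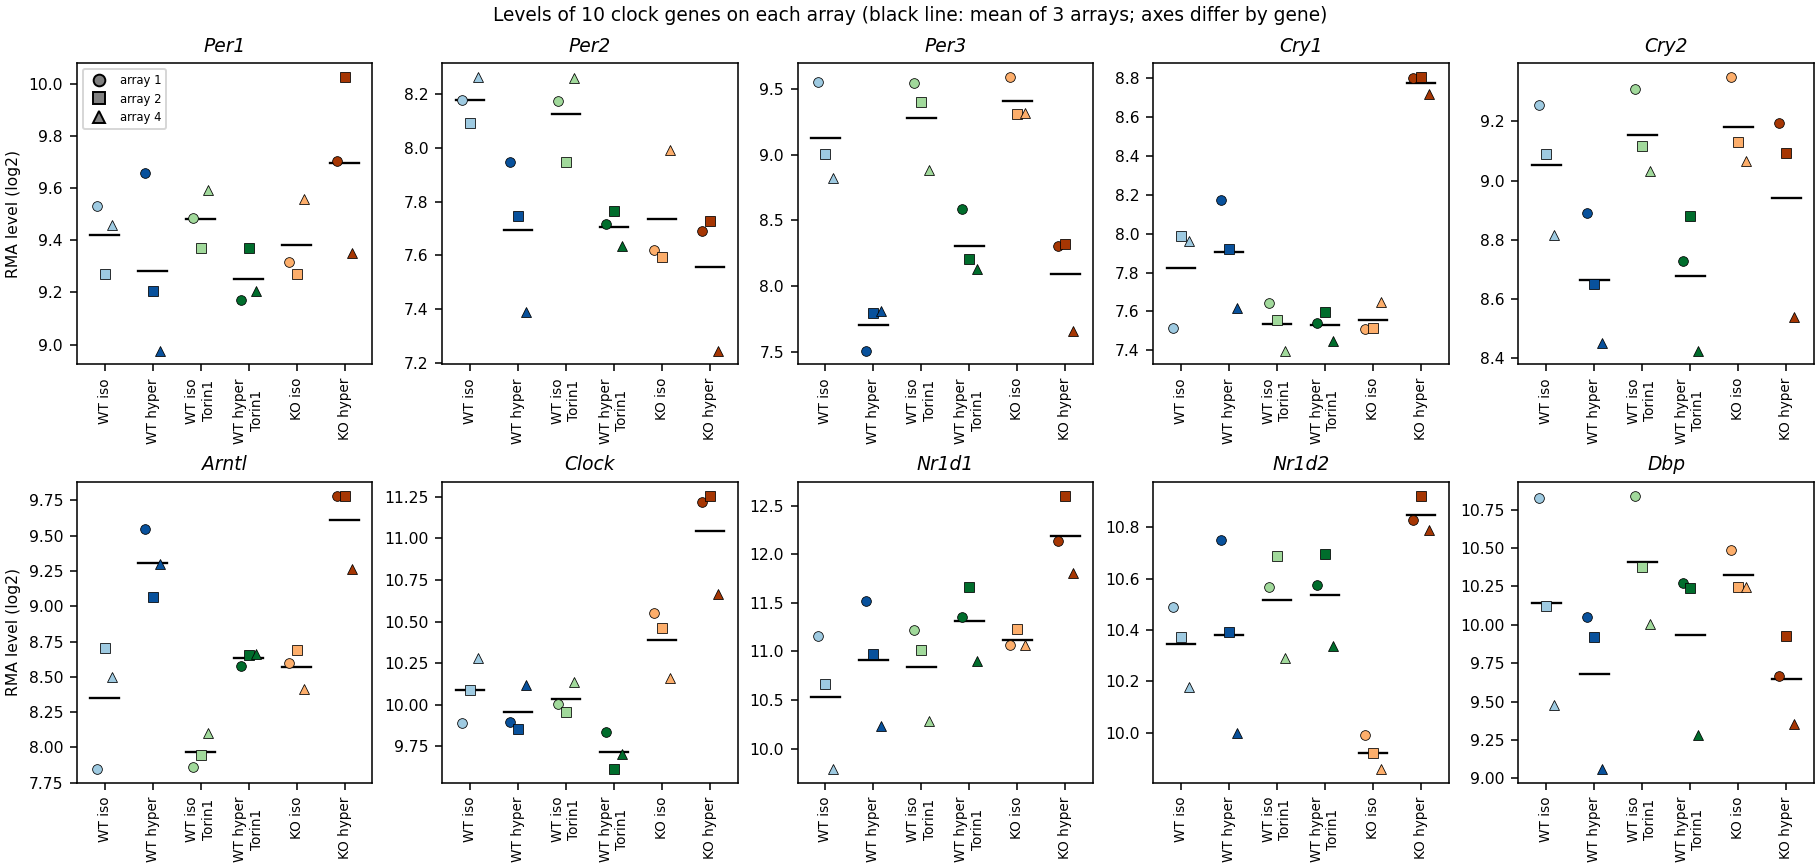
RMA level (log2, vertical axis, its range set for each gene) of the 10 clock genes on each of the 18 arrays, by group; symbols give array numbers 1, 2 and 4 and black lines the mean of 3 arrays. Per3 is lower in all 9 hypertonic arrays (7.51 to 8.59) than in all 9 isotonic arrays (8.82 to 9.59), and Cry1 stands at 8.72 to 8.81 in the hypertonic KO arrays against 7.40 to 8.18 elsewhere.

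The first comparison asked what hypertonic medium does to the clock genes of WT cells. Arntl, the activator, rose and Per3, a member of the repressor family, fell, and the other 8 genes were not called. The 2 called genes stand against 8.24% of all genes called. The level of Arntl in arrays 1, 2 and 4 was 7.84, 8.70 and 8.50 in isotonic medium and 9.55, 9.07 and 9.30 in hypertonic medium. The groups did not overlap, and array 1 held the lowest isotonic and the highest hypertonic level. The rise was 0.96 ± 0.19, or 1.94-fold (limma adjusted p = 0.00741), and it was 1.70, 0.36 and 0.80 between arrays of the same number. In a fit on these 6 arrays alone the call was lost (limma adjusted p = 0.0944). Per3 read 9.55, 9.01 and 8.82 in isotonic medium and 7.51, 7.79 and 7.81 in hypertonic medium. Every hypertonic array lay at least 1.01 below the isotonic array of its number, and the level fell by 1.42 ± 0.22 to 0.372 of its isotonic value (limma adjusted p = 0.00172). From bulk RNA, less RNA per cell and fewer cells that hold it cannot be told apart.

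Among the other repressor genes of WT cells, Per2 read 8.18, 8.09 and 8.26 in isotonic against 7.95, 7.75 and 7.39 in hypertonic medium. Its groups did not overlap, but the difference of -0.48 ± 0.16 was not called (limma adjusted p = 0.0695). Cry2 differed by -0.39 ± 0.18 (limma adjusted p = 0.204). With the array number as a block Cry2 was called too (limma adjusted p = 0.0197), as were 15% of all genes, and its values were -0.37, -0.44 and -0.36 within the numbers. Per1 (-0.14 ± 0.17), Cry1 (0.08 ± 0.14) and Clock, the partner of Arntl (-0.13 ± 0.15), had intervals that include 0. So had Nr1d1 (0.38 ± 0.36), Nr1d2 (0.03 ± 0.16) and the output gene Dbp (-0.47 ± 0.35), and for Nr1d1 the 95% interval runs from -0.39 to 1.14. The 10 changes had a median of -0.14, beside 0.02 over all genes tested. Macrophage markers, of which 6 of 8 on the array were above the brightness threshold and none had a level above 10, summed to 9.83 to 10.01 log2 in isotonic and 10.12 to 10.43 in hypertonic WT arrays. Endothelial markers (4 of 6 above the threshold, none above 10) summed to 8.40 to 8.48 and 8.52 to 8.71 in the same groups. Such sums add linear values, so a single bright gene can carry a list. The part of either list in these results was not tested.

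In WT cells pretreated with Torin1 hypertonic medium lowered Per3 again, the 1 clock gene called, beside 3.37% of all genes. Per3 read 9.54, 9.40 and 8.88 in isotonic against 8.59, 8.20 and 8.13 in hypertonic medium with Torin1. The groups did not overlap, and the level fell by 0.97 ± 0.22 to 0.511 of its isotonic value (limma adjusted p = 0.0247). The call was lost on these 6 arrays alone (limma adjusted p = 0.0907) and without isotonic array 1 (0.115) or 2 (0.0885) or hypertonic array 2 (0.113) or 4 (0.0679) of the Torin1 groups. Arntl read 7.86, 7.95 and 8.10 in isotonic against 8.58, 8.66 and 8.66 in hypertonic medium with Torin1, groups that did not overlap. The difference was 0.66 ± 0.19 (limma adjusted p = 0.0740) and was called only after a further quantile normalization (0.71, limma adjusted p = 0.0418), among the alternatives run. Per2 differed by -0.42 ± 0.16 and Cry2 by -0.48 ± 0.18 (limma adjusted p = 0.173 for both). With the array number as a block Cry2 was called (limma adjusted p = 0.0124), beside 7.86% of all genes. The macrophage markers summed to 9.78 to 9.92 log2 in isotonic and 9.99 to 10.45 in hypertonic arrays with Torin1, and their part in these results was not tested.

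Torin1 itself was compared with its absence within each medium. In isotonic medium none of the 10 genes was called by limma, nor was any other gene (0%), while 470 genes and 0 of the 10 had an unadjusted p below 0.05. In hypertonic medium none of the 10 was called beside 0.115% of all genes. An unadjusted p below 0.05 was found there for 3 of the 10 and for 1907 of all 15711 genes. Those 3 were Arntl (-0.67 ± 0.19, limma adjusted p = 0.150), Per3 (0.61 ± 0.22, limma adjusted p = 0.259) and Cry1 (-0.38 ± 0.14, limma adjusted p = 0.260). For each of them the arrays of the groups did not overlap, as was also so for Clock (-0.24 ± 0.15, limma adjusted p = 0.604). Arntl, for example, was at 9.07 to 9.55 in hypertonic medium alone and at 8.58 to 8.66 with Torin1. Without the arrays of number 4, an alternative chosen after the data were seen, Per3 was called (0.75, limma adjusted p = 0.0346), beside 4.77% of all genes.

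The hypertonic effect with Torin1 was also set against that without it. The difference of the effects was 0.46 ± 0.31 for Per3 and -0.30 ± 0.27 for Arntl, and none of the 10 genes and 0% of all genes were called by limma. An unadjusted p below 0.05 was found for 317 genes and for 0 of the 10. The 95% interval runs from -0.21 to 1.12 for Per3 and from -0.88 to 0.29 for Arntl, so these arrays do not show that the effects are alike. The 2 hypertonic effects set side by side, -1.42 and -0.97 for Per3 and 0.96 and 0.66 for Arntl, come from different arrays of the same line.

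**Figure D2:**
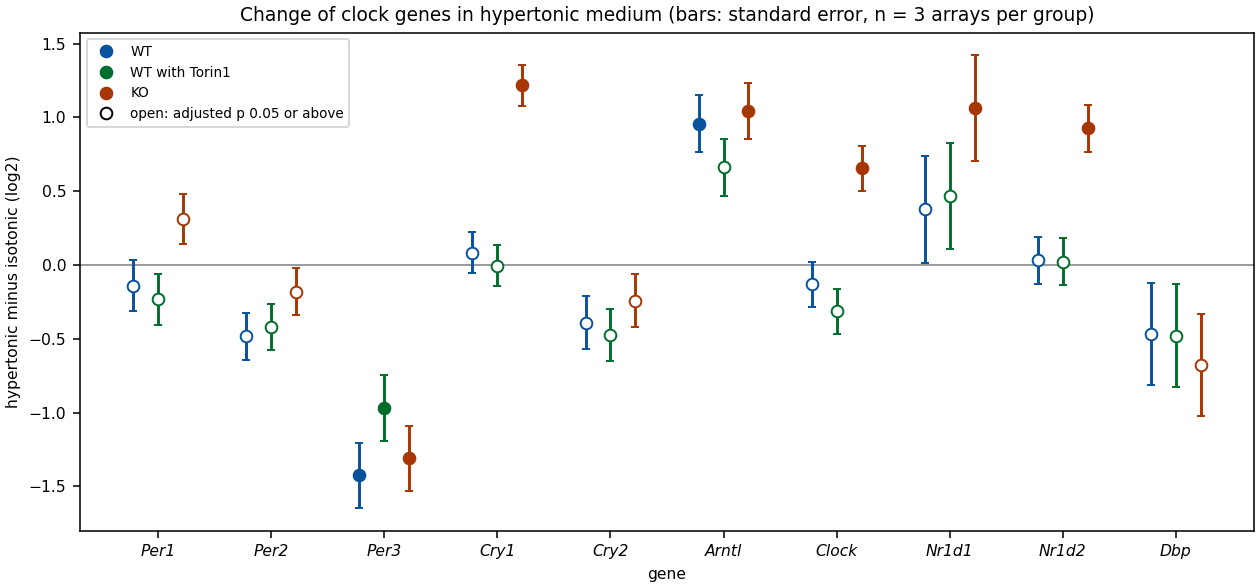
Hypertonic minus isotonic level (log2) of the 10 clock genes in WT, WT with Torin1 and KO cells, with the standard error from 3 arrays per group; filled points have an adjusted p below 0.05. Per3 is filled below 0 in all 3 settings, whereas Cry1, Clock, Nr1d1 and Nr1d2 are filled for KO cells alone.

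In KO cells hypertonic medium changed 6 of the 10 genes: Arntl, Clock, Cry1, Nr1d1 and Nr1d2 rose and Per3 fell. All genes were called at a share of 30.1% in this comparison, and the median change was 0.48 for the 10 genes and 0.02 for all genes. Both activators rose. Arntl read 8.60, 8.69 and 8.42 in isotonic against 9.78, 9.78 and 9.26 in hypertonic medium, a rise of 1.04 ± 0.19 or 2.06-fold (limma adjusted p = 0.000733). Clock read 10.55, 10.46 and 10.16 in isotonic against 11.22, 11.26 and 10.66 in hypertonic medium, and rose by 0.66 ± 0.15 or 1.58-fold (limma adjusted p = 0.00422). For both genes the groups did not overlap, and array 4 was the lowest of its group.

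Of the repressors, Cry1 rose. It read 7.51, 7.51 and 7.65 in isotonic against 8.80, 8.81 and 8.72 in hypertonic medium. Every hypertonic array lay more than 1 log2 above every isotonic array, and the SD within the groups was 0.08 and 0.05. The rise was 1.22 ± 0.14 or 2.33-fold (limma adjusted p = 1.59e-05). Its paralogue Cry2 differed by -0.24 ± 0.18 (limma adjusted p = 0.351). Per3 read 9.59, 9.31 and 9.31 in isotonic against 8.31, 8.32 and 7.66 in hypertonic medium, and fell by 1.31 ± 0.22 to 0.403 of its isotonic level (limma adjusted p = 0.00037). Per1 (0.31 ± 0.17) and Per2 (-0.18 ± 0.16) were not called. Their hypertonic array 4 was the lowest, and the differences within numbers 1, 2 and 4 were 0.39, 0.76 and -0.21 for Per1 and 0.07, 0.14 and -0.75 for Per2.

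Both genes of the REV-ERB loop rose in KO cells. Nr1d2 read 9.99, 9.92 and 9.86 in isotonic against 10.83, 10.92 and 10.79 in hypertonic medium, a rise of 0.93 ± 0.16 or 1.90-fold (limma adjusted p = 0.000415). Nr1d1 read 11.07, 11.23 and 11.07 and then 12.14, 12.60 and 11.81, a rise of 1.06 ± 0.36 or 2.09-fold (limma adjusted p = 0.0353). The groups of either gene did not overlap. The call of Nr1d1 was lost without isotonic KO array 1 (0.0884), 2 (0.0637) or 4 (0.0820) and without hypertonic KO array 1 (0.0735) or 2 (0.143), all limma adjusted p. The output gene Dbp, which the activator pair switches on, read 10.48, 10.25 and 10.25 in isotonic against 9.67, 9.92 and 9.35 in hypertonic medium. These groups did not overlap either, but the difference of -0.68 ± 0.35 was not called (limma adjusted p = 0.164). With the array number as a block it was called (limma adjusted p = 0.0117), beside 36.3% of all genes, as it was on these 6 arrays alone (0.0164), beside 29.2%.

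Without isotonic KO array 1, whose labels disagree, Per3 (-1.22), Cry1 (1.19), Arntl (1.06), Clock (0.74) and Nr1d2 (0.96) kept their calls in KO cells. Centring each array on its median moves the median change of all genes in KO cells from 0.02 to 0.18. Over the gene-level values the hypertonic KO arrays have medians of 7.53 to 7.57, against 7.64 to 7.74 in the other arrays. After that centring no called clock gene changed direction, and Per1 was called as well (0.46, limma adjusted p = 0.0481), beside 39.2% of all genes. Per1 was called also without hypertonic KO array 4 (0.48, limma adjusted p = 0.0474).

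KO and WT cells were compared within each medium. In isotonic medium none of the 10 genes was called by limma, beside 14.6% of all genes. An unadjusted p below 0.05 was found for 2 of the 10 and for 4097 of all 15711 genes. Those 2 were Nr1d2 (-0.42 ± 0.16, limma adjusted p = 0.0932) and Per2 (-0.44 ± 0.16, limma adjusted p = 0.0730). The WT arrays of Nr1d2 were at 10.49, 10.37 and 10.18, above the KO arrays at 9.86 to 9.99. With the array number as a block Nr1d2 was called (limma adjusted p = 0.0152), beside 20.9% of all genes, and on these 6 arrays alone at 0.0497, beside 11.5%. Per2 was called without isotonic KO array 4 (-0.57, limma adjusted p = 0.0306). Without isotonic KO array 1 the differences were -0.46 for Nr1d2 and -0.39 for Per2, and none of the 10 was called.

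In hypertonic medium 4 of the 10 genes were higher in the KO line and none was lower, beside 31.9% of all genes. The activator Clock read 9.89, 9.85 and 10.12 in hypertonic WT arrays, all below the KO arrays, and differed by 1.09 ± 0.15 or 2.13-fold (limma adjusted p = 7.38e-05). Cry1 read 8.18, 7.92 and 7.62 in WT and at least 8.72 in KO arrays, a difference of 0.87 ± 0.14 or 1.83-fold (limma adjusted p = 0.00021). Nr1d1 read 11.52, 10.98 and 10.24 in WT arrays, a spread wider than that of the KO arrays. It differed by 1.27 ± 0.36 or 2.42-fold (limma adjusted p = 0.0131), a call lost without hypertonic WT array 4 (0.94, limma adjusted p = 0.0699) or KO array 2 (1.06, 0.0662). Nr1d2 read 10.75, 10.39 and 9.998 in WT arrays and differed by 0.47 ± 0.16 or 1.38-fold (limma adjusted p = 0.0342). That call was lost on the 6 arrays alone (limma adjusted p = 0.108) and without hypertonic WT array 2 (0.0759) or 4 (0.175) or KO array 1 (0.0735), 2 (0.104) or 4 (0.0517), and without WT array 4 the difference was 0.28. Without all arrays of number 4 it was 0.31 and not called either (limma adjusted p = 0.0654).

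The genes called in hypertonic medium between the lines did not include Arntl (0.30 ± 0.19), Per3 (0.39 ± 0.22) or Per2 (-0.14 ± 0.16). Per1 differed by 0.41 ± 0.17 (limma adjusted p = 0.0799). Its call depended on single arrays: it was called without hypertonic WT array 1 (0.60, limma adjusted p = 0.0131) or KO array 4 (0.58, 0.0175), and after centring (0.56, 0.0188, beside 44.1% of all genes). Cry2 differed by 0.28 ± 0.18 (limma adjusted p = 0.254) and was called with the array number as a block (0.0445), beside 39.1% of all genes. Without hypertonic KO array 4 Cry2 (0.48, limma adjusted p = 0.0401) and Per3 (0.61, 0.0494) were called. Centring moves the median of all genes from 0.04 to 0.19 here. Endothelial markers, of which 4 of 6 were above the brightness threshold and none had a level above 10, summed to 8.40 to 8.71 log2 in WT arrays without Torin1 and to 8.69 to 9.81 in KO arrays, and fibroblast markers to 15.65 to 15.95 and 15.98 to 16.16. Epithelial markers, of which 6 of 6 were above the threshold and none had a level above 10, summed to 9.34 to 9.37 in isotonic WT against 9.53 to 9.97 in isotonic KO arrays, and to 9.28 to 9.53 against 9.62 to 9.72 in hypertonic medium. Over the 18 arrays the endothelial marker Tek ran from 5.71 to 9.09, and Pecam1, Cdh5, Kdr, Tie1 and Emcn stayed between 4.54 and 6.86. The epithelial marker Cdh1 ran from 6.43 to 8.80, and Epcam, Krt8, Krt18, Krt14 and Cldn4 stayed between 5.70 and 7.83. The part of these marker differences in the results between the lines was not tested.

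**Figure D3:**
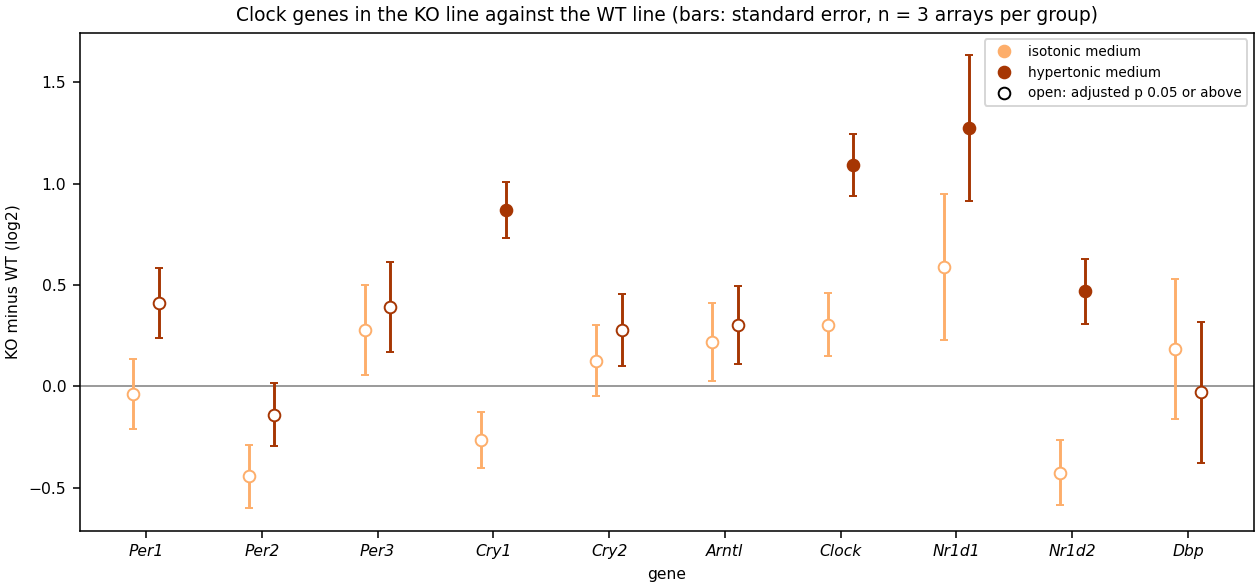
KO minus WT level (log2) of the 10 clock genes in isotonic and in hypertonic medium, with the standard error from 3 arrays per group; filled points have an adjusted p below 0.05. No isotonic point is filled, and in hypertonic medium Cry1, Clock, Nr1d1 and Nr1d2 are filled at 0.47 to 1.27 above 0.

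Whether the lines respond to hypertonic medium differently was tested as the difference of the hypertonic effects, KO minus WT. Cry1, Clock and Nr1d2 had a larger change in the KO line, 3 of the 10 genes beside 9.5% of all genes. For Cry1 the difference was 1.14 ± 0.20 (limma adjusted p = 0.00283), with 0.63, 1.36 and 1.42 in numbers 1, 2 and 4. For Nr1d2 it was 0.89 ± 0.23 (limma adjusted p = 0.0211), with 0.58, 0.99 and 1.11. Clock differed by 0.79 ± 0.22 (limma adjusted p = 0.0331), with 0.66, 1.04 and 0.66, so all 3 genes differed in the same direction in each number. Of these calls, that of Cry1 held under the 21 alternatives run (limma adjusted p from 0.00102 to 0.0138). Nr1d2 was no longer called when isotonic WT array 1 (0.0509) or array 2 of hypertonic KO (0.0570) was left out, both limma adjusted p. That of Clock was lost without any 1 of 8 arrays (limma adjusted p from 0.0530 to 0.0933) and on the arrays of these 4 groups alone (0.0769); the 8 are isotonic and hypertonic arrays 2 of both lines, isotonic arrays 4 of both lines and hypertonic arrays 1 of both lines.

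Per3 and Arntl, called in both lines, were not called in this test. The difference was 0.11 ± 0.31 for Per3 (95% interval -0.55 to 0.78) and 0.09 ± 0.27 for Arntl (-0.49 to 0.67), so differences of those sizes are not excluded. Nr1d1, called in KO cells and not in WT cells, differed by 0.69 ± 0.51 (limma adjusted p = 0.505), and its response is not shown to differ between the lines. Per1 (0.45 ± 0.24), Per2 (0.30 ± 0.22), Cry2 (0.15 ± 0.25) and Dbp (-0.21 ± 0.49) were not called. Without isotonic KO array 1 the differences of Cry1, Clock and Nr1d2 were 1.11, 0.87 and 0.93, all called. Centring moves the median of all genes from -0.01 to 0.17 and left the same 3 genes called.

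Set out by level, Per3 split the arrays by medium: isotonic KO (mean 9.40 ± 0.16 SD, n = 3), isotonic WT with Torin1 (9.28 ± 0.35) and isotonic WT (9.13 ± 0.38) overlapped, and so did hypertonic WT with Torin1 (8.31 ± 0.25) and hypertonic KO (8.09 ± 0.38). Hypertonic WT was lowest (7.70 ± 0.17) and overlapped hypertonic KO. Arntl ran the other way at the top, with hypertonic KO (9.61 ± 0.30) and hypertonic WT (9.31 ± 0.24) overlapping. Below them hypertonic WT with Torin1 (8.63 ± 0.05), isotonic KO (8.57 ± 0.14) and isotonic WT (8.35 ± 0.45) overlapped, and isotonic WT with Torin1 (7.97 ± 0.12) overlapped isotonic WT alone. Clock was highest in hypertonic KO (11.05 ± 0.33), then isotonic KO (10.39 ± 0.20), which overlapped isotonic WT (10.09 ± 0.20). Nr1d2 had hypertonic KO at the top (10.85 ± 0.07) and isotonic KO at the bottom (9.92 ± 0.07), with the 4 WT groups between at means of 10.35 to 10.54, overlapping each other. Hypertonic KO stood above all other arrays for Cry1 (8.78 ± 0.05) and Nr1d1 (12.18 ± 0.40), and the 5 other groups overlapped in a chain for either gene. Per1, Per2, Cry2 and Dbp spanned 1.05, 1.02, 0.93 and 1.78 log2 over the 18 arrays.

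The number an array carries moved with several of these genes. Cry2, Nr1d1, Nr1d2 and Dbp were lowest in array 4 in 6 of 6 groups. Array 4 lay on average 0.47 below its group mean for Nr1d1, 0.45 for Dbp, 0.22 for Cry2, 0.22 for Per3 and 0.18 for Nr1d2. For Dbp in isotonic WT cells, arrays 1, 2 and 4 read 10.83, 10.12 and 9.48, a range wider than any difference between 2 group means of that gene. Arntl, Clock, Per1, Per2 and Cry1 had no such order, with array 4 lowest in 2 to 4 of the 6 groups. What the numbers mean is not in the labels. Without the arrays of number 4 more clock genes were called, and so were more of all genes. In KO cells 8 of the 10 were called, Per1 and Dbp in addition, beside 37.3% of all genes (30.1% with number 4). Between the lines in hypertonic medium 6 were called, with Per1, Cry2 and Per3 gained and Nr1d2 lost, beside 40.2% (31.9%). Between the lines in isotonic medium Per2, Clock and Nr1d2 were called, beside 24.2% (14.6%). In WT cells Cry2 was added to Per3 and Arntl, beside 21.2% (8.24%), and with Torin1 Per3 was called, beside 9.95% (3.37%). Cry1, Clock and Nr1d2 were called in the difference of the responses, beside 17.9% (9.5%).

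**Figure D4:**
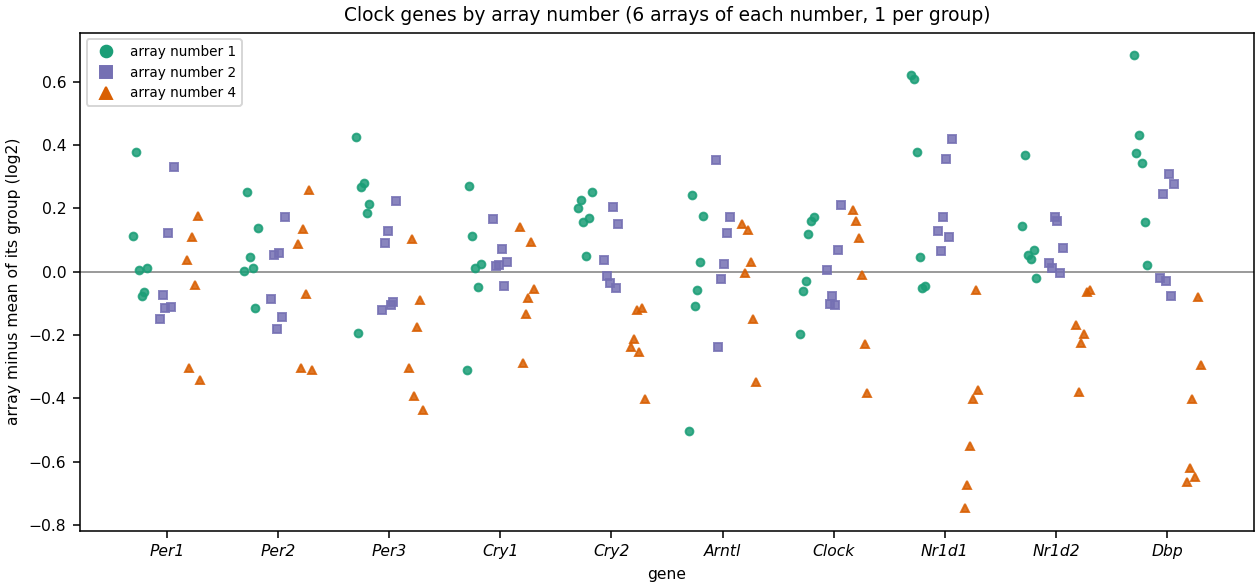
Level of each clock gene on each array minus the mean of its group (log2), by array number, with 6 arrays of each number; the grey line marks 0. Array 4 (triangles) lies below 0 in all 6 groups for Cry2, Nr1d1, Nr1d2 and Dbp.

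For the 6 genes with a call in either line or in their difference, the 3 other genes with the most similar pattern over the 12 WT arrays were looked up by Pearson correlation. These are the highest correlations among the tested genes, they rest on arrays that share group and number, and no p is attached. For Per3 they were Hcfc1r1 (r = 0.988), Echdc2 and Vps41 (both 0.980), with r of 0.893, 0.947 and 0.987 over the 6 KO arrays, which the choice did not use. For Arntl they were Aen (0.984), Necap1 (0.977) and Wdr3 (0.966), with 0.951, 0.655 and 0.494 in KO arrays. Nr1d1 had Ppp1r13l (0.977), Atmin (0.970) and Syn1 (0.959), with 0.931, 0.859 and 0.895 in KO arrays, and Nr1d2 had Slc20a1 (0.945), Sbno1 (0.924) and H2ac15 (0.923), with 0.974, 0.970 and -0.656. The WT patterns of Cry1 and Clock did not carry over in the same way. Cry1 had P4hb (0.944), Uqcr11 (0.943) and Atp5g3 (0.936) in WT and 0.596, -0.285 and -0.031 in KO arrays, and Clock had B3glct (0.955), Tmem123 (0.950) and Ctsz (0.949) in WT and -0.847, -0.972 and -0.729 in KO arrays.

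Other clock genes were read from 3 lists, and genes of the signals that reach the Per promoters from 2 more; 48 of 53 were tested. Over the 5 lists 3 of the 48 were called in WT cells beside 8.24% of all genes, 24 in KO cells beside 30.1%, and 5 in the difference of the responses beside 9.5%. With the array number as a block these counts were 4 beside 15%, 27 beside 36.3% and 12 beside 14.5%, and no listed gene lost a call. Between the lines 7 of the 48 were called in isotonic medium beside 14.6% of all genes and 20 in hypertonic medium beside 31.9%, against 14 beside 20.9% and 26 beside 39.1% with the block. Without the block Dusp1 (-1.58), Sgk1 (-1.49), Fos (-0.995), Wee1 (-0.68), Gsk3a (-0.36) and Csnk1e (-0.24) were lower in isotonic KO cells, and Sik1 (0.73) was higher. In hypertonic medium Fbxl21 (-1.02) and Cirbp (-0.84) were lower in KO cells. Sik1 (0.96), Nr4a3 (0.78), Ep300 (0.69), Gsk3b (0.48), Csnk1d (0.48) and Crebbp (0.38) were higher there, beside genes named below. The genes gained with the block between the lines were Creb1, Crtc3, Fkbp5, Rora, Sirt1, Tef and Zbtb16 in isotonic and Ciart, Fkbp5, Nampt, Nr4a1, Sirt1 and Usp2 in hypertonic medium.

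Of 9 further loop factors none was called by limma in WT cells, and 1 had an unadjusted p below 0.05, as had 3565 of all 15711 genes. In KO cells 1 rose, beside 30.1% of all genes called: Nfil3, the D-box repressor, by 1.64 ± 0.45 (limma adjusted p = 0.0108). Nfil3 read 8.79, 8.60 and 9.90 in isotonic against 10.54, 10.43 and 11.22 in hypertonic KO arrays, with array 4 the highest in either group. Between the lines in hypertonic medium Nfil3 (1.23 ± 0.45), Tef, the relative of Dbp (0.98 ± 0.17), and Rora, a ROR receptor (0.87 ± 0.21), were higher in KO cells. In the block fit Tef (0.33, limma adjusted p = 0.0302) and Arntl2, a paralogue of Arntl (-0.57, 0.0424), were also called in KO cells. In the difference of the responses Nfil3 (1.72, limma adjusted p = 0.108, and 0.00126 with the block) and Tef (0.53, 0.218 and 0.0369) were called only with the block, among these 2 fits. The median of these 9 was -0.20 in WT and -0.09 in KO cells, beside 0.02 over all genes in either.

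Kinases and ubiquitin ligases set how long PER and CRY proteins last. Of 9 such genes none was called by limma in WT cells (2 had an unadjusted p below 0.05), and in KO cells 5 rose and 2 fell, beside the 30.1% of all genes called there, with a median of -0.05 in WT and 0.30 in KO cells. Fbxl21, a ligase for CRY, fell by 1.47 ± 0.18 in KO cells (limma adjusted p = 2.69e-05), from 7.93, 7.87 and 8.41 to 6.54, 6.62 and 6.64. Btrc, a ligase for PER, fell by 0.58 ± 0.13 and Csnk1d, a kinase of PER, rose by 0.42 ± 0.09. The difference between the lines was called for Fbxl21 (-1.03 ± 0.25), Fbxw11 (0.50 ± 0.15) and Csnk1d (0.42 ± 0.12), and with the array number as a block also for Btrc (-0.53, limma adjusted p = 0.0204) and Csnk1e (0.36, 0.0487).

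Of 10 coregulator and output genes 1 fell in WT cells, and 2 rose and 2 fell in KO cells, shares near those of all genes (8.24% and 30.1%), with medians of -0.07 and 0.11. Cirbp, a cold-inducible RNA-binding protein gene, fell by 1.09 ± 0.23 in WT (limma adjusted p = 0.00812) and fell by 1.92 ± 0.23 in KO cells (limma adjusted p = 1.93e-05). It read 10.95, 10.19 and 10.24 in isotonic against 9.27, 9.25 and 9.58 in hypertonic WT arrays, and 8.43 to 8.58 in hypertonic KO arrays. The acetyltransferase genes Ep300 (0.88 ± 0.13) and Crebbp (0.63 ± 0.11) rose in KO cells, and the response of Ep300 differed between the lines (0.69 ± 0.19, limma adjusted p = 0.0299). The block fit also called Wee1 in WT (-0.37, limma adjusted p = 0.0402), Cirbp in WT with Torin1 (-0.70, 0.0197) and Wdr5 in KO cells (0.42, 0.00678). In the difference of the responses the block added Cirbp (-0.83, limma adjusted p = 0.0300) and Crebbp (0.48, 0.0436).

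Signals that switch on Per genes include CREB with the serum response and the glucocorticoid receptor. Of 13 genes on the CREB and serum list 1 rose in WT cells, Fosb (0.51 ± 0.12), beside 8.24% of all genes called. In KO cells 7 rose, beside 30.1% of all genes called, led by the orphan receptors Nr4a3 (1.06 ± 0.25) and Nr4a2 (0.88 ± 0.25) and by Fos (0.86 ± 0.25). The median was 0.09 in WT and 0.44 in KO cells. An unadjusted p below 0.05 in the difference between the lines was found for 3 of the 13 and for 3498 of all 15711 genes. None of the 13 was called by limma in that difference, beside 9.5% of all genes. Fos was called there with the block (1.02, limma adjusted p = 0.0299, against 0.0945 without it). Of 7 genes on the glucocorticoid list Dusp1, a phosphatase of MAP kinases, rose by 1.22 ± 0.22 in WT cells, by 0.84 ± 0.22 with Torin1 and by 0.89 ± 0.22 in KO cells. In KO cells 4 of the 7 rose, among them Sgk1 (1.07 ± 0.17) and Klf9 (0.80 ± 0.23), and 1 fell, beside 30.1% of all genes called. The median was 0.11 in WT and 0.41 in KO cells. Between the lines in hypertonic medium Dusp1 (-1.91 ± 0.22) and Sgk1 (-0.90 ± 0.17) were lower and Klf9 (1.09 ± 0.23) higher in KO cells. Dusp1 (-1.58 ± 0.22) and Sgk1 (-1.49 ± 0.17) were called lower in KO cells in isotonic medium too, and Klf9 (0.40 ± 0.23) was not called there. Nr3c1, the glucocorticoid receptor, was the 1 gene of this list called in the difference of the responses (0.62 ± 0.15, limma adjusted p = 0.0174), beside 9.5% of all genes. None of the 48 genes was called by limma for Torin1 in either medium, beside 0% of all genes in isotonic and 0.115% in hypertonic medium. Of a list 0 to 1 genes had an unadjusted p below 0.05 in isotonic and 0 to 2 in hypertonic medium. Over all 15711 genes these counts were 470 and 1907. Rora was called with the block for Torin1 in hypertonic medium (0.84, limma adjusted p = 0.0321, against 0.112 without it), beside 1.4% of all genes.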

How the data were processed

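Total RNA was labelled and read on 18 Affymetrix arrays. The authors made the deposited log2 values with RMA in R 2.11.1, per the submitters' processing notes. Build and annotation were not given in the sources used here. RMA brings the arrays to a common distribution, so a change is relative to the rest of the array.

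The 34760 probe sets were used as deposited. Of these 21640 name 1 gene, and a gene was tested when at least 1 group mean exceeded 5.86 log2, the 30th percentile of all values. limma 3.58.1 in R 4.3.3 estimated 6 group means from the 18 arrays together, leaving 12 residual degrees of freedom, with 9 contrasts and Benjamini-Hochberg adjustment over 15711 genes. The fit was tested on simulated data with noise drawn independently for each array. That test does not cover deviations shared by arrays of the same number. The labels state no test.

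The members and all gene lists were chosen with earlier results of these data known. From the lists, the genes called in a contrast were named, at most the 3 largest changes per list and contrast, and the genes whose call the block below changes.

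Whether the array numbers pair the arrays was checked on deviations from the group means, which correlated over genes at 0.156 to 0.847 between same-numbered arrays of groups compared directly. For 15 of the 18 arrays the closest array of another group had the same number. The main fit nevertheless left the number out, so its standard errors, intervals and adjusted p ignore that pairing. The fit with the number as a block is given where it changes the call of a clock or listed gene. Precision is limited by 3 arrays per group. Alternatives changed the filter, normalization, variance prior, arrays fitted and array left out.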

Additional observations from a re-analysis of the deposited data

Results flagged for a closer look

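For 3 clock genes the response to hypertonic medium differed between the KO and the WT line, by the interaction term of limma. The KO minus WT difference of the change was 1.14 for Cry1, 0.79 for Clock and 0.89 for Nr1d2 (log2, limma adjusted p = 0.00283, 0.0331 and 0.0211). Cry1 changed by 0.08 ± 0.14 in WT and 1.22 ± 0.14 in KO cells, Clock by -0.13 ± 0.15 and 0.66 ± 0.15, and Nr1d2 by 0.03 ± 0.16 and 0.93 ± 0.16 (n = 3 arrays per group). Each genotype is a single line, and the part of that in the difference was not tested. The array number moves with Nr1d2. With the number as a block its difference was 0.89 (limma adjusted p = 0.00285), beside 14.5% of all genes called. Without the arrays of number 4 it was 0.78 (limma adjusted p = 0.00815), beside 17.9%.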

How the results depend on the processing

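Of 1470 values of single clock genes under an alternative, 1341 kept their direction and their side of the threshold, 31 lost a call, 26 gained one, and 72 changed sign without being called on either side. No called change reversed. The number of clock genes called changed by more than 1.5 times in these cases. Fits on the groups of a contrast alone called 1 gene in WT (beside 1.70% of all genes), 0 with Torin1 (0.146%) and 1 between the lines in isotonic medium (11.5%). A further quantile normalization called 2 with Torin1 (4.67%). With the replicate block 2 were called with Torin1 (7.86%) and 1 between the lines in isotonic medium (20.9%), and beside the calls given with the comparisons it changed no other of the 10 genes. Leaving out each array in turn gave 0 to 1 genes with Torin1 (1.02% to 3.31% of all genes), 0 to 1 between the lines in isotonic medium (11.0% to 13.1%), 2 to 6 between them in hypertonic medium (24.4% to 31.1%), and 1 to 3 in the difference of their responses (5.30% to 11.1%). Without the arrays of number 4, an alternative chosen after the data were seen, 1 gene was called for Torin1 in hypertonic medium (4.77% against 0.115% with them) and 3 between the lines in isotonic medium (24.2% against 14.6%). Where not shown by the fewer arrays fitted, the cause was not tested. The 10 genes have 1 probe set each, so the choice of probe set changes none of them. Small changes, such as those of Per1, Per2 and Cry2 in hypertonic medium, are near the limit of 3 arrays per group.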
